A study of Mus musculus with 6 samples.

Results

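Total RNA of mouse testis, taken with no antibody, was measured on 2 of the 6 arrays of the series, one labelled WCE 1 and the other WCE 2. They are called total RNA 1 and total RNA 2 here. The other arrays hold RNA precipitated with an antibody against MVH (DDX4, a germ cell RNA helicase) or with normal IgG, 2 arrays each, and were not compared with these. All groups are labelled as testis of C57/BL6 mice, and the labels give no genotype, age or treatment. Per the labels' protocols, amplified RNA was labelled with the dye Cy5 and 1 sample was hybridised to each array. Part of that protocol text describes tumor samples and was not used here. The labels do not say whether the arrays stand for separate animals, so the spread between them may be technical. The 2 values of a gene give an SD with n = 2, and no test was run.

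Members were all genes named by the array's annotation, each represented by its brightest probe and ranked by its mean log2 intensity. Of 16390 named genes, 15688 had a value on both arrays and were ranked, 541 had a value on 1 array and 161 on neither. Values are the deposited intensities on a linear scale, and each pair of values below gives total RNA 1 first and total RNA 2 second. A percentile says what share of the ranked genes were dimmer. The bright range is the upper 25.0% of genes (3922), the dim range the lower 25.0% (3923) and the middle range the 7843 between them, while the top range is the upper 10.0% (1569 genes, all within the bright range). Probes differ in how well they bind, so the order is one of probe brightness and only a rough guide to RNA abundance. Among the 216 genes with over 1 measured probe, the brightest and dimmest probes of a gene differed by a median of 5.19-fold.

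The adult testis makes sperm in its seminiferous tubules. Spermatogonia divide and enter meiosis as spermatocytes, whose daughter cells, the round spermatids, build an acrosome and then elongate, pack their DNA with protamines in place of histones and grow a tail. Sertoli cells nurse the germ cells inside the tubules, peritubular muscle-like cells surround them, and Leydig cells between the tubules make testosterone. Many spermatid mRNAs are stored for translation after transcription has stopped. The transcription factor CREM acts in round spermatids through cAMP-responsive elements, whose palindromic form is TGACGTCA.

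Both arrays had a median intensity of 30 over all probes. The lowest values were 1.4 and 2, the highest 74564 and 77410, and the 100 brightest probes held 26.1% and 26.9% of all signal. By the mean of both arrays, bright genes ran from 164 to 75974 with a median of 606. Middle genes had a median of 34.9 and dim genes a median of 6.09, the lowest at 1.75. The median SD over the arrays was 0.18 log2 units in the bright and middle ranges and 0.28 in the dim range.

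Promoter sequences are shown first, for Prm1 and Tnp1, whose products pack sperm DNA, and for 4 other spermatid genes that hold like letters near their starts. All are from RefSeq, build GRCm38.p6, read 5′ to 3′ on the gene's strand. Each stretch shows the letters in capitals with up to 45 bases on either side, cut at the annotated start. The capitals begin 64 bases before the start in Prm1, 94 in Tnp1, 58 in Tssk2, 36 in Lyzl6, 46 in Meig1 and 40 in Spata6. Capitals mark matches to TGANNTCA, a loose form of the cAMP-responsive palindrome that was chosen after the Prm1 and Tnp1 sequences had been seen. The sequences lie at chr16:10796835-10796932 (minus strand) for Prm1, chr1:73015941-73016038 (minus) for Tnp1, chr16:17898534-17898631 (plus) for Tssk2, chr11:103638891-103638971 (minus) for Lyzl6, chr2:3418598-3418688 (minus) for Meig1, and chr4:111777512-111777596 (plus) for Spata6.
Prm1: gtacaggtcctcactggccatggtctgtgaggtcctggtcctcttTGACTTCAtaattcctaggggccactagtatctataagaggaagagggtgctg
Tnp1: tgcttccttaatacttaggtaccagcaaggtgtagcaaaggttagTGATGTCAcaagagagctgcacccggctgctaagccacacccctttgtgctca
Tssk2: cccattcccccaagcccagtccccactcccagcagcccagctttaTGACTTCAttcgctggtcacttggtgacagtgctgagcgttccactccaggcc
Lyzl6: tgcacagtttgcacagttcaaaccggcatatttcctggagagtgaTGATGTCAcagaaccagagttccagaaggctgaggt
Meig1: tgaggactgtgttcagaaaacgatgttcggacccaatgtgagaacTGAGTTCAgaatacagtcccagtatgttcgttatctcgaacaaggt
Spata6: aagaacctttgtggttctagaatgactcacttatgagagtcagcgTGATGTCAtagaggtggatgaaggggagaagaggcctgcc

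The letters were not shared by all the brightest genes. Prm2, tied with Tnp1 at the first rank, and Fam229b, at rank 3, had no TGANNTCA in the 250 bases before the start, nor did Tnp2, Mael or Gtsf1. The Prm2 sequence, at chr16:10792106-10792181 (minus strand), is shown for contrast, with capitals at its match to TATAAA on the other strand.
Prm2: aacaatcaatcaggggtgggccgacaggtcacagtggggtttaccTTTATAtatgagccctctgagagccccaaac

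Promoters of at most 250 bases before the start were held for 12574 of the 15688 ranked genes, and a gene was counted if any of its listed promoters held the letters on either strand. TGANNTCA stood in 1462 of them (11.6%). The share was 48.1% for the round spermatid list (13 of 27 genes) and 40.5% for the elongating spermatid list (15 of 37, Prm1 and Tnp1 among them). It was 11.1% for the meiotic list (3 of 27) and 11.8% for the Sertoli list (2 of 17). The elongating list had 1.43 listed promoters per gene, against 1.25 over all genes, so its genes had more chances to match. The round list had 1.15. High shares were not limited to spermatid lists, since 6 of 15 beta-defensin genes (40%) and 5 of 16 epididymal genes (31.2%) also held the letters. The median brightness percentiles of these 2 lists were 23.1 and 29.3, but 6 of 26 ranked beta-defensins were bright. The members that held the letters were not ranked apart from the others. By brightness, the top range, the first of 10 equal classes of genes, held TGANNTCA in 16.5% and the other classes in 10.1% to 12.2%.

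The strict palindrome TGACGTCA, which is a case of TGANNTCA and contains TGACG, stood in 2.56% of all promoters. Its share was 3.91% in the top range (51 of 1306) and 1.24% in the dimmest class (15 of 1207). It stood in 1 of the 27 round spermatid promoters and none of the 37 elongating spermatid promoters. Ribosomal protein genes held it in 3 of 45 cases, of which Rps9 (9760 and 17663) and Rpl27a (13548 and 17529) are shown for contrast, from chr7:3703939-3704036 and chr7:109519053-109519150, both on the plus strand, with TGACGTCA in capitals.
Rps9: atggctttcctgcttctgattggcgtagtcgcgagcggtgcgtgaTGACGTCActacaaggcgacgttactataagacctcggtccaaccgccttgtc
Rpl27a: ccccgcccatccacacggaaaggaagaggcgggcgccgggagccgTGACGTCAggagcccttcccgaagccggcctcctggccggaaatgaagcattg

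The shorter TGACG stood in 25.8% of all promoters, in 31.9% of those in the top range and in 18.6% of the dimmest class. TATAAA ran the other way, with 8.73% in the top range, 16.2% in the dimmest class and 37.6% among olfactory receptors (184 of 490). The median number of CpG dinucleotides per promoter was 14 in the top range and 6 in the dimmest class, but only 4 and 3 in the round and elongating spermatid lists. Those lists thus had fewer CpG dinucleotides per promoter than the dimmest class, although most of their genes were bright. These matches describe letters in a fixed window and not binding sites.

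The brightest genes included spermatid products and parts of the machinery of protein synthesis. Prm2 and Tnp1 shared the first rank, both at 74564 and 77410, the highest value on each array. Prm1 ranked 4 at 67960 and 77027. Prm1 and Prm2 encode the protamines and Tnp1 the transition protein that comes before them on sperm DNA. On total RNA 1, 2 probes stood at exactly the highest value, and on total RNA 2, 4 probes did, so the order among them is not resolved. Fam229b (69763 and 77410) and Gstm5 (59141 and 77410), a glutathione transferase, completed the first 5.

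The 30 brightest genes spanned 26901 to 77410. Tail and cytoskeleton genes among them were Odf2 of the outer dense fibres (51213 and 61987), Tubb4b, a beta-tubulin (62498 and 70968), Tcte3, a dynein light chain (56304 and 65546), Ropn1l (42190 and 49412) and Spa17 (29596 and 37651). Oaz3, the testis antizyme that limits polyamine synthesis, stood at 47949 and 60782. Ldhc, the sperm lactate dehydrogenase, stood at 34062 and 45483. Meig1, needed for spermatid shaping, stood at 44505 and 58982, and Hils1, a spermatid linker histone, at 28873 and 37796. Housekeeping genes stood beside them, with Rpl41 at 65694 and 68326, Ppia at 38209 and 50986 and Eef1a1 at 40935 and 46158. Among the brightest 100 genes, 12 were in the elongating spermatid list, 4 in the round spermatid list and 7 were cytosolic ribosomal proteins. These lists hold 42, 34 and 56 of the 15688 ranked genes. A spermatid, sperm chromatin or tail list held 18 of the 100, and any list or family held 50. In the whole bright range, 17.3% of genes were in any list or family. None of those 100 belonged to the spermatogonial, meiotic, Sertoli, Leydig, peritubular, immune, epididymal or other-organ lists.

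**Figure D1:**
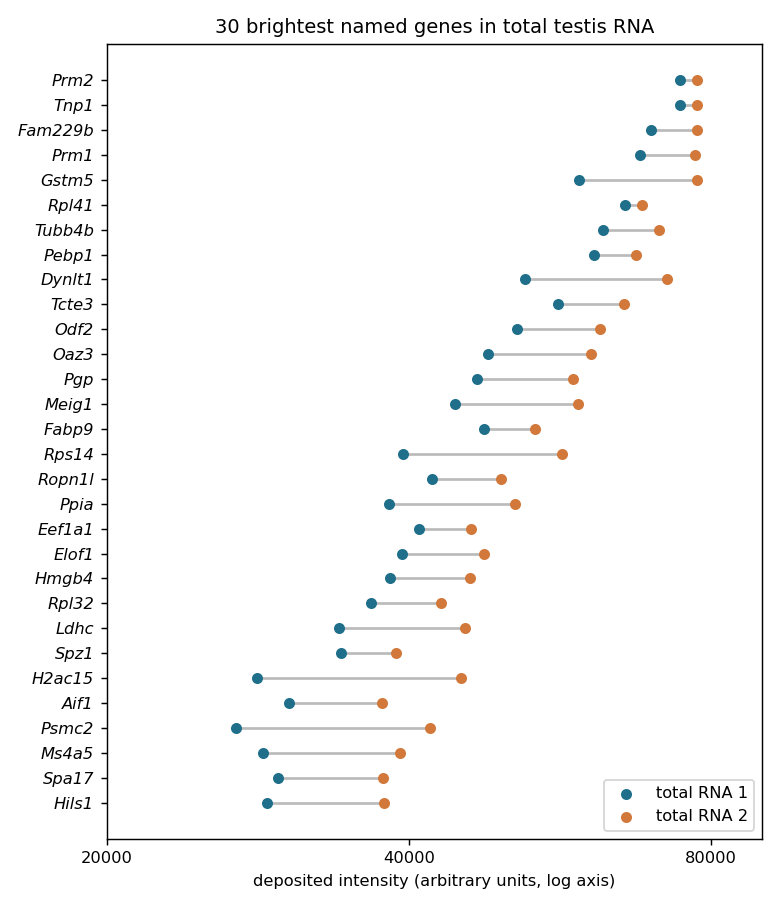
Deposited intensity (arbitrary units, log axis) of the 30 brightest named genes, 1 row per gene in rank order, with 1 point for each total RNA array. All values lie between 26901 and 77410, and the points of Prm2 and Tnp1 coincide at the highest value of each array.

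Among the marker lists, which were chosen with earlier results of these data known, those of late germ cells had the highest medians. Elongating spermatid genes had the highest median percentile, 97.6 (42 ranked genes), with 40 in the bright range (95.2%, against 25.0% of all ranked genes), 34 in the top range (against 10.0%) and none in the dim range. Beside the protamines, Spem1, needed to shed spermatid cytoplasm, stood at 26443 and 29889, Tnp2 at 16206 and 14919, Akap4 of the fibrous sheath at 14832 and 14276, and Odf1 at 5300 and 6675, the last near the list's median. The lowest members were Tekt1 (23.9 and 29.9) and Cylc2 (25.1 and 16.8), both of the middle range.

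Round spermatid and acrosome genes followed at a median percentile of 94.8, with 30 of 34 in the bright range and 22 in the top range. The brightest were Adam3, a sperm surface protein needed for passage to the egg (16761 and 20978), the kinases Tssk6 (18434 and 17808) and Tssk2 (16397 and 19581), and Spaca3 of the acrosome (15161 and 18632). Izumo1, which binds the egg, stood at 1636 and 1737, and the acrosomal protease Acr at 286 and 349. The 4 members in the middle range were Adam5 (120 and 94.5), Sox30 (61.3 and 52.3), Crem (27.5 and 30.8) and Gopc (11 and 11.5). Crem and Sox30 encode transcription factors, and Rfx2, another, stood just above the bright limit at 158 and 191.

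Meiotic genes covered the whole span. Their median percentile was 65.6, with 12 of 34 genes in the bright range, 19 in the middle and 3 in the dim range. Clgn, a chaperone of sperm surface proteins, stood at 14073 and 16389, and Syce2 of the synaptonemal complex at 13633 and 16753. Rec8, the meiotic cohesin, stood at 92.7 and 89.7, and Mei4, of the machinery that breaks DNA for recombination, at 3.2 and 3.2. Spermatogonial genes lay lower, at a median percentile of 45.4, with 5 of 26 in the bright range (19.2%) and 6 in the dim range (23.1%). Both shares were near the 25.0% of all ranked genes. Uchl1 (1680 and 2054) and Nanos3 (1771 and 1624) led that list, while the receptors Kit (5.9 and 6.4) and Ret (3.3 and 4.4) were its dimmest.

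Sertoli cell genes were split, with 12 of 27 in the bright range, 11 in the middle and 4 in the dim range, at a median percentile of 73.0. Secreted products led, with the protease Ctsl at 9267 and 11622, the cystatin Cst12 at 6969 and 10649, Defb19 at 6864 and 9332 and clusterin, Clu, at 4386 and 4705. The regulators Sox9 (35.6 and 27.7), Fshr (36.1 and 22.3) and Wt1 (26.2 and 24) lay in the middle range. Amh, made mainly by immature Sertoli cells, was dim at 11.2 and 7.7, as was the signal Dhh at 6.1 and 3.4.

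Leydig cell genes had a median percentile of 56.0, with 6 of 16 in the bright range, 7 in the middle and 3 in the dim range. Klk1b24 led at 2489 and 3917, ahead of the electron donor Fdx1 at 1316 and 1692. Of the steroid-making enzymes, Cyp17a1 was bright at 320 and 561, while Cyp11a1 (119 and 227) and Hsd3b1 (135 and 217) lay at the bright limit. Star, the cholesterol carrier (6.2 and 8.6), and Hsd17b3, which makes testosterone (4.5 and 5.7), were dim. Of the 16 genes, 15 were higher on total RNA 2, with a median difference of 0.52 log2 units, against 0.05 over all genes and at most 0.25 in any of the 10 brightness classes. Other lists were also higher on total RNA 2, among them core and linker histones (median 0.41, 24 of 31 genes), mitochondrial ribosomal proteins (0.32, 61 of 75), sheath and axoneme genes (0.32, 26 of 37), respiratory chain subunits (0.28, 68 of 79) and round spermatid genes (0.25, 30 of 34). Bright genes as a whole leaned the same way, with a median of 0.21 in the bright range and 0.25 in the top range. Ranked by total RNA 1 alone, 3 of the Leydig genes lay in the bright range instead of 6. Whether the arrays differed in Leydig cell content was not tested. In a bulk sample, fewer cells of a type and less RNA per cell cannot be told apart.

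The 4 lists of other cells and organs had bright shares of 0% to 15% and dim shares of 33.3% to 58.1%. Of all ranked genes, 25.0% were bright and 25.0% dim. Of 24 peritubular and vascular genes, 1 was bright, Acta2 (370 and 463), the smooth muscle actin, and 8 were dim, among them the endothelial gene Pecam1 (3.7 and 3.1). Of 20 immune and blood genes, 3 were bright and 8 dim. The complement gene C1qb stood at 644 and 907, whereas the T cell gene Cd3e stood at 5.6 and 5.2. Aif1, a macrophage gene in other tissues that was not in the list, ranked 26 at 30348 and 37579. None of 19 epididymal and accessory gland genes was bright, and Crisp1 stood at 2.6 and 2.7. For markers of other organs, 25 of 43 genes were dim and 1 was bright, the liver gene Apoa2 at 172 and 337.

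**Figure D2:**
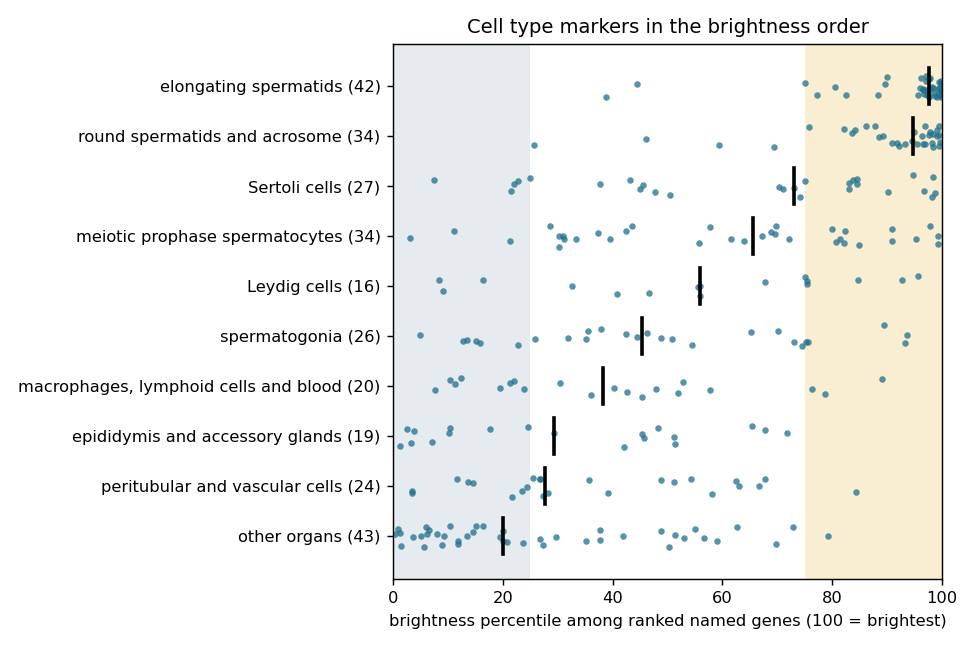
Percentile in the brightness order of every ranked member of the 10 cell type lists, 1 point per gene, with a black bar at the list median and the dim and bright ranges shaded. The number of genes stands in brackets. The elongating and round spermatid lists have medians of 97.6 and 94.8, and the other-organ list has a median of 20.0.

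The 4 marker genes named for this profile were all in the top range. Beside Prm1 and Tnp1, Mael ranked 42 (24254 and 28754) and Gtsf1 ranked 108 (14792 and 16676). Both act in the piRNA pathway, which silences transposons in germ cells. Of the 25 ranked piRNA and germ granule genes, 12 were bright, 13 middle and none dim, at a median percentile of 73.3. Tdrd6 stood at 5378 and 4707, and Ddx4 itself, the helicase precipitated in the other arrays, at 860 and 1306. Tdrd1 (17.8 and 22.2) and Rnf17 (12.8 and 10.1) were the lowest. Of 33 mRNA-binding proteins of germ cells, 18 were bright, led by the poly(A)-binding protein Pabpc1 (10201 and 8833) and by Fxr1 (9358 and 8024). Ybx1, which packages stored mRNA, stood at 3204 and 2617.

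Energy supply ranked high. Of 79 respiratory chain and ATP synthase subunits, 67 were bright (84.8%) and 54 in the top range, at a median percentile of 95.5, with Ndufa12 at 16994 and 27057 and the testis subunit Cox8c at 17586 and 21397. Of 28 glycolytic genes, 20 were bright, at a median percentile of 90.5, with Pgam2 at 17770 and 24444 and Aldoa at 10969 and 10231. Sheath, dense fibre and axoneme genes had 29 of 37 in the bright range, while Dnah1, a dynein heavy chain, was lowest at 13.2 and 7.1. This list and the sperm chromatin list share genes with the elongating spermatid list, such as Odf1, Akap4, Prm1 and Tnp1. Other lists share genes too, such as Gapdhs and Pgk2 (glycolytic and spermatid lists), H2al2a (sperm chromatin and histones) and Eef1a1 (housekeeping and translation factors). Counts of lists that share genes are thus not separate results. The sperm chromatin list had 12 of 17 in the bright range, and H1f6, the testis linker histone, was dim at 6.3 and 13.4. Its bright members included H2az1, H3f3b, H3f3a and H2ax, histone variants that are not limited to sperm. General housekeeping genes had 15 of 21 in the bright range, with beta-actin, Actb, at 15534 and 19803.

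Gene families were also grouped by symbol. Cytosolic ribosomal proteins had 41 of 56 genes in the bright range, at a median percentile of 94.1, and core and linker histones 18 of 31, led by H2ac15 (28258 and 45120) and the spermatid variant H2al2a (25562 and 34941). Heat shock proteins and chaperonins had 49 of 71 bright, led by Dnajb3 at 22891 and 30597. The Spata genes, named for spermatogenesis, had 18 of 23, whereas ADAM proteases were split, with Adam32 at 19285 and 27666 and Adam8 at 2.6 and 3. Zfp zinc finger genes had 35 of 235 in the bright range (14.9%) and 70 in the dim range (29.8%). Each range holds 25.0% of all ranked genes. Kcn potassium channel genes had 4 of 73 bright, of which Kcnmb4 stood at 8157 and 10380.

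Other basic machinery was bright too. Proteasome subunits had 28 of 44 genes in the bright range and none in the dim range, led by the ATPase Psmc2 (26901 and 41964). Mitochondrial ribosomal proteins had 49 of 75, translation factors 30 of 46 and splicing factors 25 of 43, the last led by Hnrnpf (20550 and 26946). Tex genes, many of them found in testis, had 24 of 33, with Tex43 at 8251 and 10528. Tubulins had 8 of 15 in the bright range and none in the dim range, from Tubb4b down to the neuronal Tubb2b at 11.5 and 14.7.

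Several families had members in all ranges. TRIM ubiquitin ligases had 15 of 47 genes in the bright range and 14 in the dim range, with Trim36 at 9183 and 11112 and Trim16 at 1.5 and 3.8. Kinesins, the motors of microtubules, had 8 of 36 bright and 5 dim, with Kif2c at 4826 and 4062 and Kif14 at 3.3 and 2.8. Mitochondrial carriers had 15 of 41 bright, with the phosphate carrier Slc25a3 at 4350 and 4222. Rab GTPases, which direct vesicles, had 13 of 54 bright (24.1%) and 7 dim (13%). Ubiquitin-specific proteases had 10 of 46 bright (21.7%) and 13 dim (28.3%). The bright shares of these 2 families and of kinesins (22.2%) were near the 25.0% of all ranked genes. The 10 genes nearest to the median of the order were of mixed function, among them Nampt, of NAD synthesis (32.6 and 37.1), Timeless, of DNA replication (31.3 and 38.9), and Psmd9, a proteasome assembly factor (35.8 and 33.7).

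Collagens, of the extracellular matrix, had 5 of 36 genes in the bright range (13.9%), with Col16a1 at 361 and 401. Their 9 in the dim range (25%) matched the 25.0% of all ranked genes. Cytochrome P450 enzymes had 6 of 55 bright and 24 dim, the brightest being Cyp2a12 at 1514 and 1776. Chemokines and interleukins had 5 of 53 bright and 18 dim, with the chemokine Cxcl16 at 2996 and 2456 and Il2 at 2.1 and 4.9. Keratins had 3 of 20 bright, Gpr receptor genes 5 of 52 and Hox genes, which pattern the embryo, 2 of 31, with 13 of the last in the dim range. The 10 dimmest genes, among them Tgfbr3 (1.5 and 2.1) and Pou2af1, a B cell factor (1.4 and 2.5), lay between 1.4 and 1.6 on total RNA 1 and between 2.1 and 2.5 on total RNA 2, close to the lowest value of each array.

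Among the 29 families, the lowest median percentiles were those of vomeronasal and olfactory receptors, Wnt and Fgf genes and beta-defensins. Of 586 ranked olfactory receptors, which detect odours in the nose, 336 were dim (57.3%, against 25.0% of all genes) and 8 bright (1.37%), none in the top range. A further 55 had a value on 1 array and 21 on neither. Olfr151 was the brightest at 603 and 624. Vomeronasal receptors had 41 of 62 dim and a median percentile of 17.9, the lowest of the 29 families, with 2 bright, Vmn1r191 (515 and 397) and Vmn1r82 (212 and 139). Of 39 Wnt and Fgf genes, 20 were dim and 1 was bright. Beta-defensins had 13 of 26 dim and 6 bright (23.1%, against 25.0% of all genes), and Defb19, also a Sertoli marker, was in the top range.

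**Figure D3:**
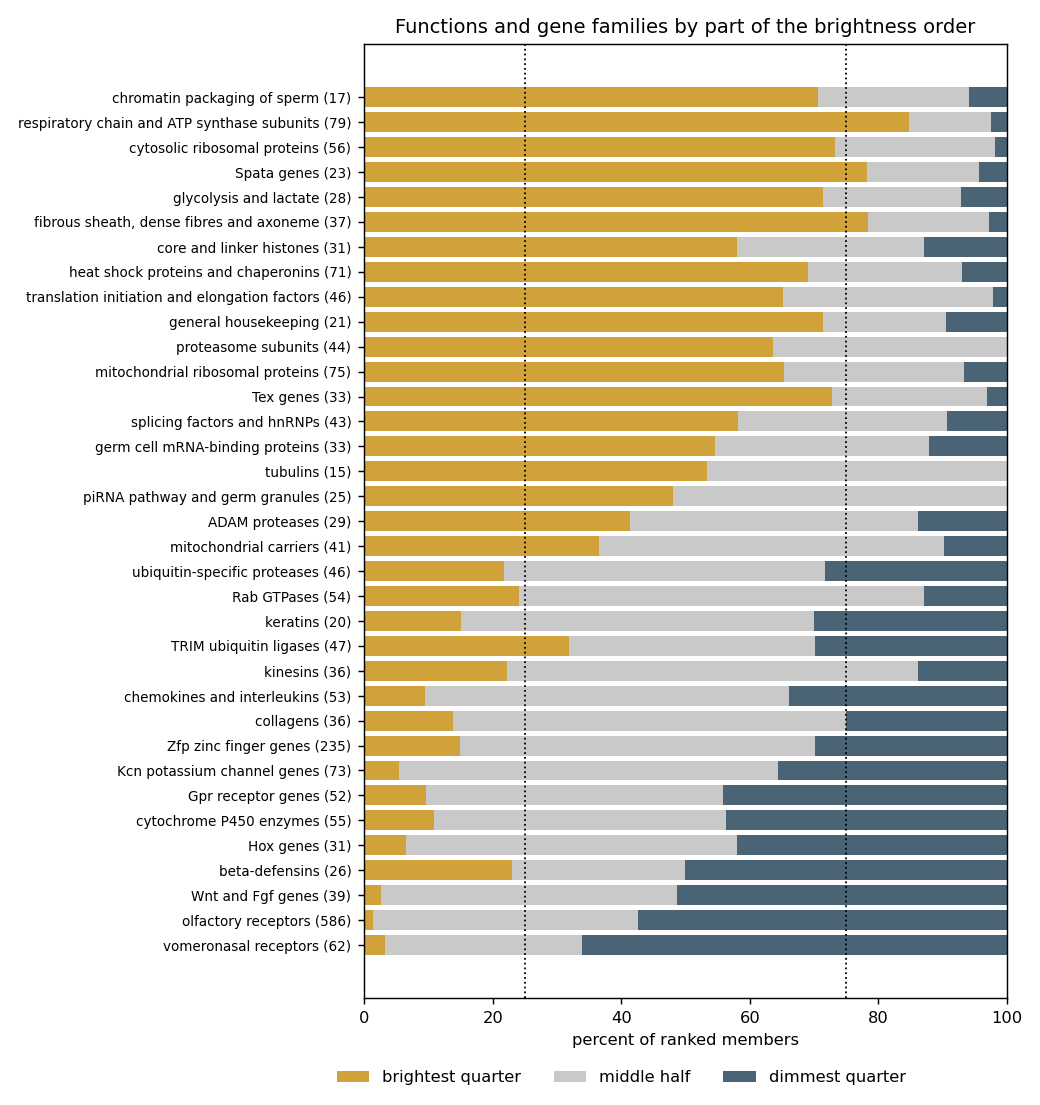
Percentage of ranked members in the bright, middle and dim ranges for the function lists and gene families, ordered by median percentile, with dotted lines at the shares of all ranked genes. Respiratory chain subunits have 84.8% of members in the bright range and olfactory receptors 1.37%.

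Genes listed as testis forms of widely used proteins were set beside their general relatives. Each was read by its own probe, so that the values give no ratio or order of RNA amounts. Some pairs are looser than others. Pgam2 is also the muscle form, Vdac3 is made in many tissues, and Azin2 is a relative of Odc1 and not its testis form. Of 29 pairs listed, 17 had both genes ranked, 10 had only the general gene ranked, 9 of these in the bright range, and 2 only the testis gene. None of the 10 testis genes had a probe under its name in the annotation used, and they were not analysed here. In the 17 pairs the testis gene's probe was the brighter on both arrays, but in 4 pairs the gap was under the median of 5.19-fold found between probes of 1 gene. The testis gene was in the bright range in 16 of the 17 pairs and the general gene in 8. The pairs were chosen with earlier results of these data known, so the choice may have shaped these counts. Lactate dehydrogenase Ldha stood at 1896 and 2587 beside Ldhc at 34062 and 45483. Pgk1 stood at 389 and 417 beside Pgk2 at 5752 and 7574. Pdha1, of pyruvate dehydrogenase, was dim at 7 and 5.4, beside Pdha2 at 5741 and 7848. The antizyme Oaz1 was itself bright at 4045 and 4349, beside Oaz3. The exception below the bright limit was Utp14b at 43.3 and 59.9, beside Utp14a at 16.2 and 17.9. Gapdh, commonly a bright housekeeping gene, stood at 6.8 and 6.6 through its 1 probe, while its sperm form Gapdhs stood at 3820 and 3607.

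**Figure D4:**
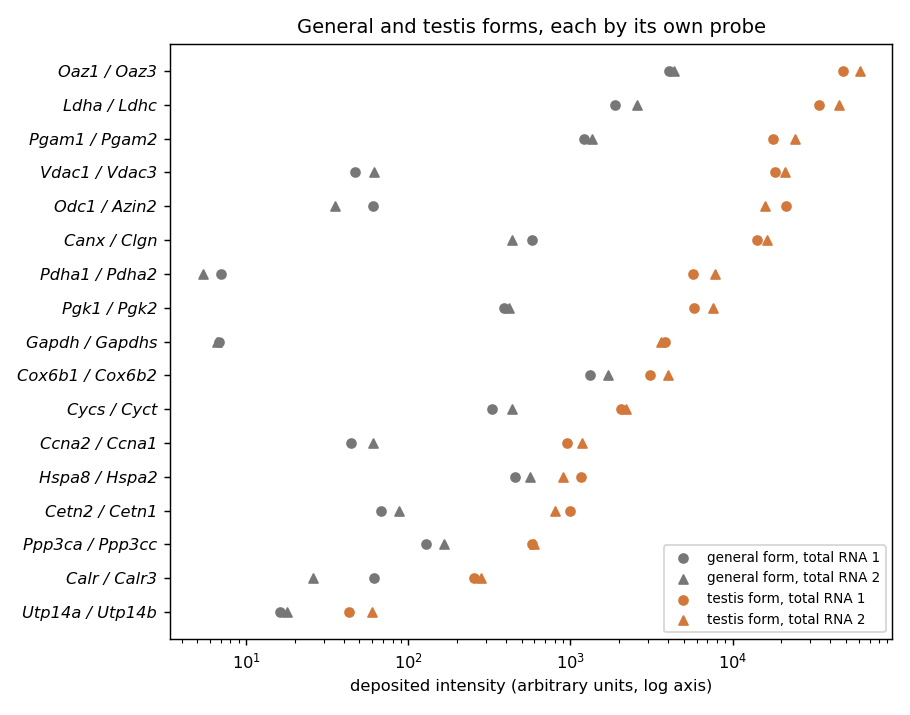
Deposited intensity (arbitrary units, log axis) of the general gene (grey) and of the gene listed as its testis form (orange) for the 17 pairs with both genes ranked, with circles for total RNA 1 and triangles for total RNA 2. The orange points lie to the right of the grey ones in each pair, from Utp14b at 43.3 and 59.9 to Oaz3 at 47949 and 60782.

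The genes on either side of the protamine cluster ranked far below it. In RefSeq order, Socs1, Tnp2, Prm3, Prm2, Prm1 and Rmi2 follow one another. Tnp2 (16206 and 14919), Prm3 (4554 and 8795), Prm2 and Prm1 were all in the top range, while Socs1, a cytokine signalling inhibitor, stood at 52.6 and 45.4 and Rmi2, of a DNA repair complex, at 6.6 and 11.5.

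The arrays ranked genes alike. Across genes, which are not independent replicates, log2 intensities correlated at r = 0.988, and the SD of the log2 difference was 0.45. The brightest 10 genes of each array were the same, 90 of the brightest 100 were shared, and no gene was bright on 1 array and dim on the other. Of the 15688 genes, 275 (1.75%) were over 2-fold brighter on total RNA 2 and 254 (1.62%) on total RNA 1. Differences were concentrated in the dim range, where 403 genes (10.3%) passed 2-fold, against 104 (1.33%) in the middle and 22 (0.561%) in the bright range. In the dimmest of the 10 classes, 17.4% passed. Limit genes were close: Spata3 (147 and 182) was the last in the bright range and Atp6v0d2 (157 and 171) the first below it.

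**Figure D5:**
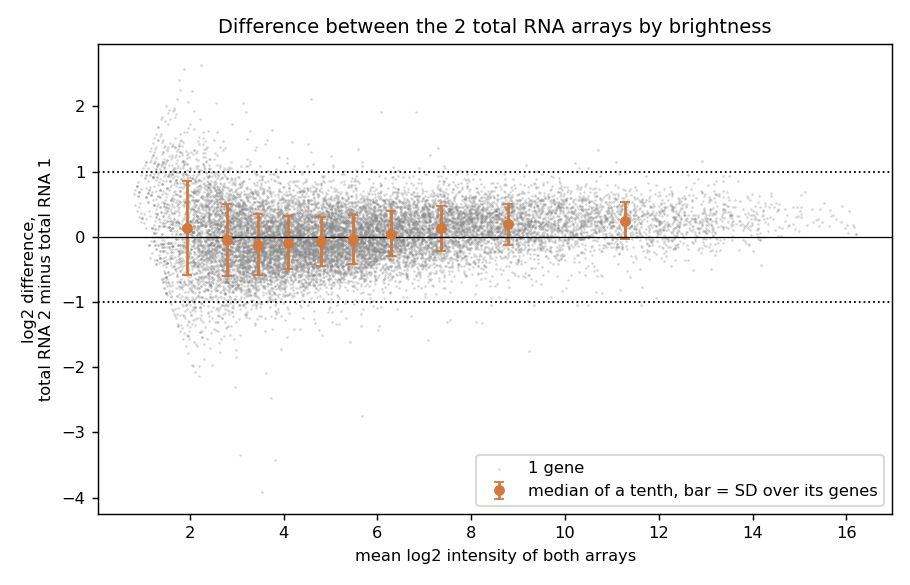
Log2 intensity on total RNA 2 minus that on total RNA 1 against the mean log2 intensity of both arrays, 1 grey point per ranked gene, with dotted lines at 2-fold. Orange points and bars are the median and SD over the genes of each of 10 equal brightness classes, and the SD is 0.29 in the brightest class and 0.72 in the dimmest.

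Among genes above the median rank, the widest gaps towards total RNA 2 included Tmem160 (34.8 and 131, 3.77-fold) and Tex29 (5233 and 11658, 2.23-fold), a testis gene of the round spermatid list. Towards total RNA 1 they included Olfr370 (132 and 19.7, 6.72-fold) and Ap4e1, an adaptor subunit of vesicle transport (1100 and 328, 3.36-fold). Each rests on 1 value per array.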

How the data were processed

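The 2 columns of total RNA were taken from the deposited table of values. The authors' values are linear intensities, and both arrays have a median of 30. Scanner, background correction, scaling and the rule for blanks: not given in the sources used here. Of 23473 probes, 22149 had a value on both arrays. Blanks were left out and not filled.

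Probes were named through the platform annotation, updated with RefSeq names (GRCm38.p6), which gave 1 symbol for 16631 probes and none for 6842. Each gene took its brightest probe, and genes were ranked by mean log2 intensity. A 2-fold gap between arrays was described, not tested. Genes named were the 30 brightest, those at each list's top, median and foot, the markers and limit genes, with further list members added after their values were seen. Members, lists and pairs were chosen with earlier results of these data known, and 10 family patterns were tightened late to drop genes outside the family. Alternatives were each array alone, mean of probes, mean of linear intensities, quantile normalization, blanks at the lowest value, genes above 10, symbols as annotated, and 1.5-fold. Protein sequences were not analysed here. Python 3.11.15, pandas 2.3.3, numpy 2.4.6 and matplotlib 3.10.9 were used, with the ranking tested on simulated data.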

Additional observations from a re-analysis of the deposited data

How the results depend on the processing

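No paired analysis was possible because the results come from no test and from 1 group. The testis gene's probe ranked higher in all 17 pairs with each array left out and with the mean of all probes, the alternatives run for them. With an array left out this had to follow, since the probe was brighter on both arrays. Averaging probes could change little, as only 216 of the 15688 ranked genes had over 1 measured probe. With total RNA 1 or total RNA 2 left out, the piRNA list had 0 to 1 dim genes, the sperm chromatin list 0 to 1, the round spermatid list 0 to 1 and the sheath list 0 to 1, the Leydig list had 3 to 6 bright genes, and other organs 1 to 2. With blanks at the lowest value, dim genes numbered 5 in the meiotic list, 1 among elongating spermatid genes and 1 among housekeeping genes. Keeping only the 11625 genes above an intensity of 10, bright genes numbered 3 spermatogonial, 3 Leydig, 1 immune and 0 of other organs. Dim genes then numbered 10 meiotic, 1 round spermatid, 2 elongating spermatid, 5 peritubular, 4 immune, 2 epididymal, 7 of other organs, 3 piRNA and 2 sheath, as the limits themselves moved up. With symbols as annotated, fewer members were found, giving 1 bright immune gene, 18 bright sheath genes, and 0 dim meiotic, sheath and sperm chromatin genes. At 1.5-fold, 1388 genes were brighter on total RNA 2 and 1208 on total RNA 1, and above an intensity of 10 the 2-fold counts were 42 and 55. The 2 arrays limit precision, and dim probes are the least repeatable.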

Other observations

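Of the 100 brightest probes listed on both arrays, 41 had no gene symbol in the annotation used, against 28.2% of all 22149 probes. The share was 24.7% among the brightest 5537 probes and 33% among the dimmest 5537. The brightest were M400002879 (61545 on total RNA 1 and 73615 on total RNA 2), which ranked 6 among probes, and M400000325 (62368 and 70155), which ranked 9. The ranking of named genes therefore leaves out many of the brightest signals.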
